A study of Mus musculus with 6 samples.

Results

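Cytosolic nucleic acid sensors are proteins that bind RNA or DNA in the cytoplasm and start the type I interferon response. The 10 genes described here are Ddx58, Ifih1, Dhx58, Mavs, Cgas, Tmem173, Zbp1, Tbk1, Trex1 and Samhd1, chosen by name from the 54532 genes of the deposited table, where Cgas stands under its older symbol Mb21d1. The libraries were made from mouse bone marrow-derived macrophages (BMDMs) co-cultured in vitro with ID8, a line of mouse ovarian cancer cells of female origin. Before the co-culture the ID8 cells were exposed to 40 µM cisplatin, which forms platinum crosslinks in DNA, in 3 libraries (the cisplatin group) and to PBS in 3 libraries (the PBS group). By the study's methods the marrow cells were monocytes from C57BL/6 mice aged 6 to 8 weeks, grown in medium with serum and collected after the co-culture. The sex of the mice, the length of the co-culture and any step that parted the marrow cells from the ID8 cells are not given in the sources used here. The study's methods speak of biological replicates, but the sources used here do not say whether the libraries of a group came from separate mice or cultures, so the p-values measure only the spread between these libraries.

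RIG-I (encoded by Ddx58) and MDA5 (Ifih1) are helicases that recognise double-stranded RNA and signal through MAVS on the mitochondrial surface, and LGP2 (Dhx58) tunes their activity. The DNA sensor cGAS makes the messenger cGAMP, which binds STING (Tmem173), and both routes meet at the kinase TBK1, which activates IRF3. ZBP1 binds left-handed nucleic acid and can start necroptosis through RIPK3, while the nuclease TREX1 and the dNTP hydrolase SAMHD1 limit the nucleic acid on which the sensors act. In macrophages several of these genes are themselves induced by interferon, so that the pathway feeds back on its own sensors.

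Values are FPKM, read counts corrected for gene length and library size, which can be compared between genes. Differences between the groups are cisplatin minus PBS on the log2(FPKM + 1) scale. A gene was called downregulated or upregulated where limma gave an adjusted p under 0.05 and the log2 difference was 1 or more in size. Among 13441 tested genes, 11.3% were downregulated, 4.67% were upregulated, 68.0% had an adjusted p under 0.05 and 72.4% had groups that did not overlap. Libraries held 15776238 to 17924686 recovered reads, and the depths of the groups overlapped.

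The markers of the cells in these libraries moved with the treatment. Summed over 17 ID8 and mesothelial markers, the level was 1341 to 1451 FPKM in the PBS libraries and 257.1 to 280.2 FPKM in the cisplatin libraries. Of the 13 tested, 9 were downregulated and the median log2 difference was -2.07, from -3.50 for the keratin gene Krt19 to 0.72 for the junction gene Cldn1. Macrophage and monocyte markers went the other way, with 12 of 12 higher at an adjusted p under 0.05, 4 of them upregulated, and a summed level of 1837 to 1860 FPKM in PBS and 4587 to 4763 FPKM in cisplatin. BMDM markers such as Lyz2, Csf1r and Adgre1, named after their values were seen, were thus present in every library, as the label says, but so were markers of other marrow cells. The summed level ranged from 195.0 to 202.1 FPKM in PBS and from 442.0 to 453.3 FPKM in cisplatin for lymphocyte genes, and from 4743 to 4906 FPKM and from 8814 to 9064 FPKM for granulocyte genes. Dendritic cell genes summed to at most 6.66 FPKM in PBS and 21.3 FPKM in cisplatin. The 4 Y-linked genes, which cells of female origin lack, summed to 19.5 to 22.7 FPKM in PBS and 41.6 to 42.8 FPKM in cisplatin. No marker of these lists was at 0 in all 6 libraries. In such bulk samples fewer cells of a type and less RNA per cell cannot be told apart, and the part of these cell types in the results for the sensor genes was not tested.

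**Figure D1:**
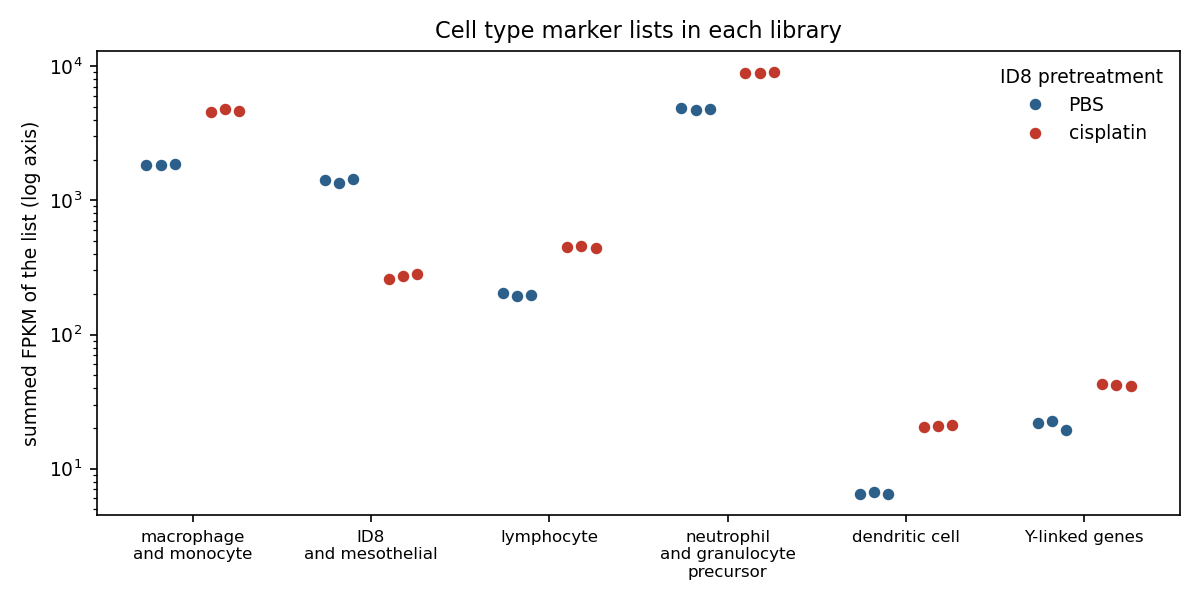
Summed FPKM of each marker list in each library, on a log axis, with PBS and cisplatin libraries as separate points. ID8 and mesothelial markers lay between 1341 and 1451 FPKM in PBS and between 257.1 and 280.2 FPKM in cisplatin, whereas the sums of the macrophage, lymphocyte, granulocyte, dendritic cell and Y-linked lists were higher in every cisplatin library.

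Promoter sequence from RefSeq (GRCm38.p6) was found for 7 of the 10 genes (all but Dhx58, Zbp1 and Tmem173, which were not searched), in windows of 250 bases before to 50 bases after the transcription start. These windows are shown because interferon-responsive factors bind repeats of GAAA. Searched on both strands, GAAA followed by any 2 bases and a second GAAA occurred in 3.44% of 32851 promoters and, among the 7 genes searched, in Ddx58 and Ifih1. The shorter core AANNGAAA, searched after the paired motif, occurred in 23.9% of promoters. Every paired match contains this core, so its presence in Ddx58 and Ifih1 was fixed in advance. A further core match lay at bases -59 to -52 in Ddx58 and at bases 29 to 36 in Ifih1. The other genes searched held no core match. Since 2 of the 4 downregulated genes were not searched, these matches are not set against the changes in level. A match is a description of the letters and not a site of binding, and no factor was measured. The 30 bases around each paired match follow, 5′ to 3′ on the strand of the gene, with the paired match in capitals. Both genes lie on the minus strand, and the match is on the opposite strand in Ddx58 (bases 3 to 12, counted from the first transcribed base as 1) and on the gene's strand in Ifih1 (bases 33 to 42).
Ddx58, chr4:40239804-40239833, minus strand: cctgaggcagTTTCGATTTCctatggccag
Ifih1, chr2:62646206-62646235, minus strand: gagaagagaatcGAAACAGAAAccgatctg

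The 100 bases before the start are given as examples from the RNA route (Ddx58 and Ifih1), the DNA route (Cgas) and the kinase they share (Tbk1), with no comparison between them. Capitals mark the one match of AANNGAAA in these 4 stretches, 59 to 52 bases before the start of Ddx58.
Ddx58, chr4:40239826-40239925, minus strand: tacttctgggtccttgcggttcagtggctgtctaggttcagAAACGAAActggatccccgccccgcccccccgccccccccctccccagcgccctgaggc
Ifih1, chr2:62646256-62646355, minus strand: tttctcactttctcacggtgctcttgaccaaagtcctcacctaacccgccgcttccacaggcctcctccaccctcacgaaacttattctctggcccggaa
Cgas, chr9:78443238-78443337, minus strand: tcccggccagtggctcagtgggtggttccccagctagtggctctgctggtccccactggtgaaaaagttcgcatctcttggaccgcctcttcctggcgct
Tbk1, chr10:121586795-121586894, minus strand: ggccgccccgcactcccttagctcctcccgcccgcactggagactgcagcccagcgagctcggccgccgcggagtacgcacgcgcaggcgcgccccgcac

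Of the 9 sensor genes that passed the filter on low values, 4 were downregulated (Ddx58, Ifih1, Dhx58 and Zbp1) and 0 were upregulated, where 11.3% and 4.67% of all tested genes were. At an adjusted p under 0.05 without the fold threshold 7 of 9 differed, and those 7 were also the genes whose groups did not overlap, both close to the shares for all tested genes given above (68.0% and 72.4%). Of the 7, 6 were lower and 1 higher, where 35.1% of all tested genes were lower and 32.9% higher at that threshold. The median log2 difference of the 9 was -0.61, and that of all tested genes was -0.0011. The tenth gene, Trex1, was listed at 0 in every library and was not tested. All 9 were read deeply enough for counting error to be small, from 209 to 384 reads per library for Mb21d1 up to 2667 to 11379 for Ddx58.

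**Figure D2:**
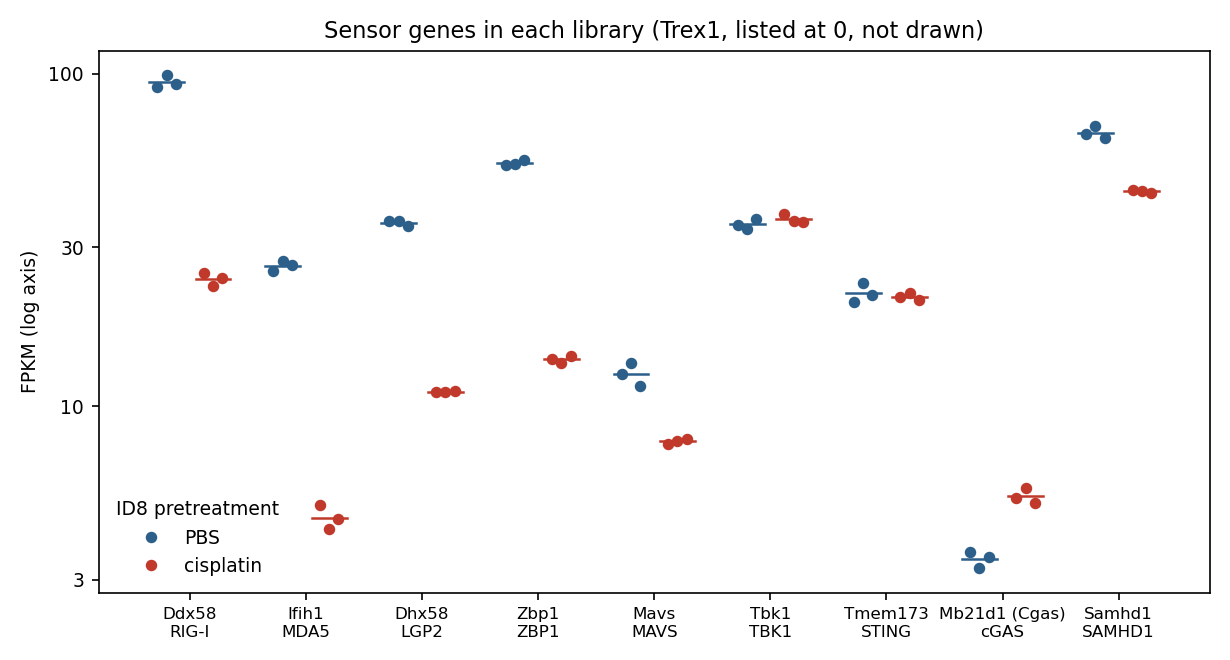
FPKM of each sensor gene in each of the 6 libraries, on a log axis, with a bar at the group mean. Ddx58, Ifih1, Dhx58 and Zbp1 lay far lower in all 3 cisplatin libraries, Mavs and Samhd1 moderately lower, Mb21d1 (Cgas) higher, and the groups of Tmem173 and Tbk1 overlapped.

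The genes of RIG-I, MDA5 and LGP2 were all downregulated. Ddx58 (ENSMUSG00000040296, chromosome 4, 40203773 to 40239828) had 91.2, 98.8 and 93.4 FPKM in the PBS libraries and 25.1, 23.0 and 24.3 FPKM in the cisplatin libraries. Every cisplatin library lay far below every PBS library. The mean went from 94.5 ± 3.93 to 24.1 ± 1.03 FPKM (SD, n = 3 each), a 3.92-fold lower level, with a log2 difference of -1.93 (SE 0.047, adjusted p = 1.67e-07). RIG-I RNA had the highest FPKM of the 9 tested sensor genes in PBS.

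Ifih1 (ENSMUSG00000026896, chromosome 2, 62595798 to 62646255), which encodes the sensor of long double-stranded RNA, had 25.6, 27.3 and 26.5 FPKM in PBS and 5.04, 4.25 and 4.56 FPKM in cisplatin. Its mean was 5.73-fold lower, 26.4 ± 0.844 against 4.62 ± 0.398 FPKM, and the log2 difference of -2.29 (SE 0.062, adjusted p = 2.38e-07) was the largest of the 9. The groups did not overlap, and the FPKM of Ddx58 over that of Ifih1 in the same library was 3.57 ± 0.053 in PBS and 5.24 ± 0.233 in cisplatin, higher in every cisplatin library than in any PBS library.

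Dhx58 (ENSMUSG00000017830, chromosome 11, 100694884 to 100704271) had 36.1, 35.9 and 34.7 FPKM in PBS and 11.0, 11.0 and 11.1 FPKM in cisplatin. LGP2, its product, lacks the signalling domains of the other helicases. Its RNA was 3.23-fold lower, with a log2 difference of -1.60 (SE 0.035, adjusted p = 1.14e-07), and replicates differed little within either group. An antisense gene, Dhx58os, covers 4.31% of its exonic bases, and without a stated strand setting reads there cannot be told apart, although Dhx58os itself stayed under 1 FPKM in every library.

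Zbp1 (ENSMUSG00000027514, chromosome 2, 173206612 to 173218923), the sensor of left-handed nucleic acid, had 53.1, 53.5 and 55.2 FPKM in PBS and 13.9, 13.4 and 14.1 FPKM in cisplatin. The mean fell from 53.9 ± 1.09 to 13.8 ± 0.347 FPKM, 3.91-fold, with a log2 difference of -1.89 (SE 0.037, adjusted p = 8.36e-08). Its size matched that of Ddx58 within the replicate error, since the FPKM of Zbp1 over that of Ddx58 was 0.572 ± 0.026 in PBS and 0.573 ± 0.016 in cisplatin.

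Because ID8 markers fell as well and macrophage markers rose, the FPKM of each of these genes was also divided, within each library, by that of each tested marker of both lists. The comparison was made after the values were seen and without a test. Over the 13 ID8 and mesothelial markers the direction turned with the marker. The ratio of Ddx58 lay higher in every cisplatin library for 4 markers, lower for 5 and overlapping for 4, and that of Zbp1 higher for 6, lower for 5 and overlapping for 2. Dhx58 had higher ratios to 8 markers and lower ratios to 5, and Ifih1 higher ratios to 2, lower to 8 and overlapping to 3. For Ddx58, the mean ratio in cisplatin was 0.116 (to Cldn1) to 2.95 (to Krt19) times that in PBS. Divided by the 12 macrophage and monocyte markers, each of these genes lay lower in every cisplatin library for all 12. Those mean ratios in cisplatin were 0.0236 to 0.270 times those in PBS. These ratios do not show which cells held the RNA.

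Mavs (ENSMUSG00000037523, chromosome 2, 131234063 to 131248025), the adaptor on which RIG-I and MDA5 act, had 12.5, 13.5 and 11.5 FPKM in PBS and 7.68, 7.85 and 7.95 FPKM in cisplatin. The groups did not overlap and the mean was 1.59-fold lower. With a log2 difference of -0.61 (SE 0.063, adjusted p = 0.000132) it passed the test but not the fold threshold, which it passed at -1.52 under scaling by the Y-linked genes. Ddx58 over Mavs changed from 7.60 ± 0.481 to 3.08 ± 0.167, without overlap between the groups.

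Tbk1 (ENSMUSG00000020115, chromosome 10, 121546455 to 121586787), the kinase shared by the RNA and DNA routes, had 35.1, 34.1 and 36.5 FPKM in PBS and 37.8, 36.0 and 35.8 FPKM in cisplatin. The groups overlapped. The log2 difference was 0.05 with a 95% interval of -0.05 to 0.15 (adjusted p = 0.315). Scaling by the Y-linked genes gave -0.92 (adjusted p = 1.18e-05). Quantile normalisation (0.139, adjusted p = 0.018), voom (0.139, adjusted p = 0.017) and scaling by total recovered reads (0.135, adjusted p = 0.022) gave small differences in the other direction that passed the test, so the call at an adjusted p under 0.05 depended on the scaling. Ddx58 over Tbk1 was 2.69 ± 0.188 in PBS and 0.661 ± 0.019 in cisplatin, so the order of the sensor and the kinase was the opposite in the groups.

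Neither the gene of cGAS nor that of STING was called. Mb21d1 (ENSMUSG00000032344, chromosome 9, 78430526 to 78443237), the gene of cGAS, had 3.64, 3.25 and 3.50 FPKM in PBS and 5.30, 5.67 and 5.12 FPKM in cisplatin. Every cisplatin library was above every PBS library, and the log2 difference was 0.51 (SE 0.064, adjusted p = 0.000346), below the fold threshold. With the FPKM as deposited it was the one sensor gene higher in cisplatin at an adjusted p under 0.05, although Tbk1 joined it under the alternatives named above, and scaling the libraries by the Y-linked genes gave -0.30 (adjusted p = 0.0103), the opposite direction. Its ratio to the 12 macrophage and monocyte markers lay lower in every cisplatin library for 8, higher for 1 and overlapping for 3, while its ratio to the 13 ID8 and mesothelial markers lay higher for 11, lower for 1 and overlapping for 1. The pseudogene Gm8093 lies over 4.87% of its exonic bases on the other strand and stayed under 1 FPKM in every library. Ddx58 over Cgas was 27.4 ± 2.74 in PBS and 4.51 ± 0.386 in cisplatin.

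Tmem173 (ENSMUSG00000024349, chromosome 18, 35733678 to 35740554), the gene of STING, had 20.5, 23.5 and 21.6 FPKM in PBS and 21.3, 21.9 and 20.9 FPKM in cisplatin. The cisplatin values lay within the PBS range. Its log2 difference was -0.03, with a 95% interval of -0.16 to 0.10 (adjusted p = 0.651), and its sign turned under several alternatives, among them leaving out PBS replicate 2 (0.021). Scaling by the Y-linked genes gave -0.99 (adjusted p = 4.29e-06), just under the fold threshold. Divided by each of the 12 macrophage and monocyte markers, Tmem173 lay lower in every cisplatin library for 12 and Tbk1 for 11, with the other one overlapping, whereas divided by the 13 ID8 and mesothelial markers each lay higher for 11 and lower for 2.

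Samhd1 (ENSMUSG00000027639, chromosome 2, 157097533 to 157135265), a hydrolase that depletes the building blocks of DNA in macrophages, had 65.9, 69.7 and 63.8 FPKM in PBS and 44.5, 44.5 and 43.8 FPKM in cisplatin. The groups did not overlap. It was 1.501-fold lower, with a log2 difference of -0.57 (SE 0.040, adjusted p = 1.95e-05), short of the fold threshold, and was called at -1.56 under scaling by the Y-linked genes. Divided by the 12 macrophage and monocyte markers, Samhd1 and Mavs each lay lower in every cisplatin library for all 12. Divided by the 13 ID8 and mesothelial markers, each lay higher for 9, lower for 2 and overlapping for 2. Trex1 (ENSMUSG00000049734, chromosome 9, 109057933 to 109059734), the main cytosolic DNA exonuclease, was listed at 0 in all 6 libraries. All of its 1147 exonic bases in GENCODE M21 lie in exons of Atrip on the same strand, and Atrip, a partner of the kinase ATR, had 2.77, 2.74 and 2.67 FPKM in PBS and 2.87, 2.71 and 2.41 FPKM in cisplatin. How reads that fall in both genes were assigned is not given in the sources used here, so the 0 is not read as absence of Trex1 RNA.

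**Figure D3:**
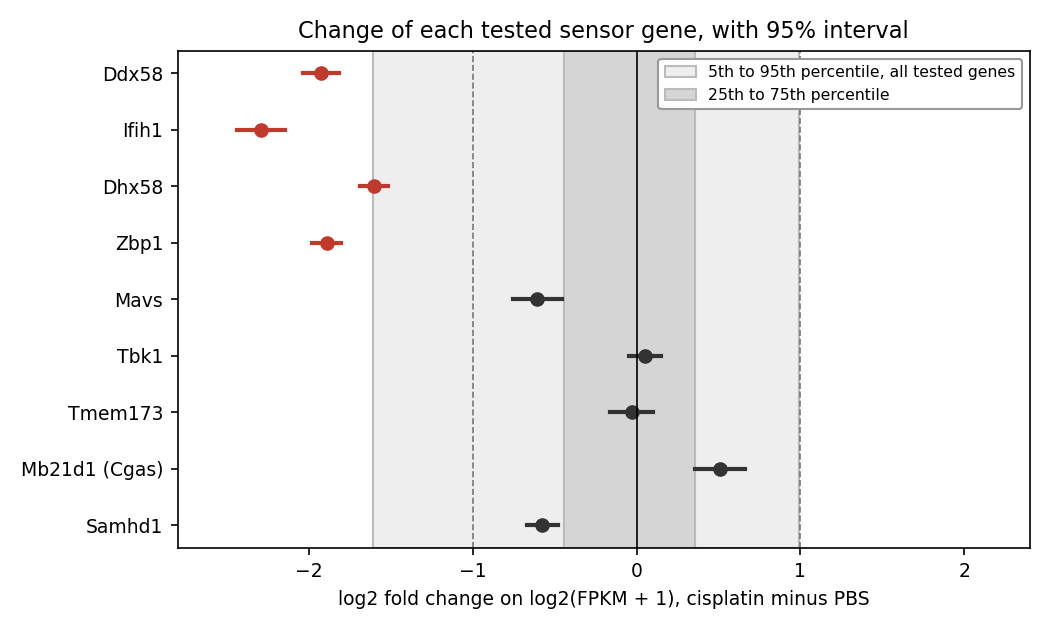
Log2 fold change (the log2 difference) of each tested sensor gene on log2(FPKM + 1), cisplatin minus PBS, with its 95% interval, red where the gene was downregulated, over bands for the 5th to 95th (-1.61 to 0.99) and 25th to 75th (-0.44 to 0.35) percentiles of all tested genes. Ddx58, Ifih1 and Zbp1 lay below the 5th percentile and Dhx58 at its edge, while Tbk1 and Tmem173 lay near 0.

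The order of the levels, leaving out Trex1, differed between the groups. In PBS the order by mean FPKM was Ddx58, Samhd1, Zbp1, Dhx58, Tbk1, Ifih1, Tmem173, Mavs and Mb21d1, and of the neighbours in it only Dhx58 and Tbk1 overlapped over their libraries. In cisplatin the order was Samhd1, Tbk1, Ddx58, Tmem173, Zbp1, Dhx58, Mavs, Mb21d1 and Ifih1, with no overlap between neighbours. Ifih1 RNA lay above that of Cgas in every PBS library, at a ratio of 7.66 ± 0.684, and below it in every cisplatin library, at 0.864 ± 0.103.

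Other genes of the same pathways were taken from lists by role. Among 18 partners and regulators of the RIG-I-like receptors, 2 were downregulated and 0 upregulated, with a median log2 difference of -0.18. Of all tested genes 11.3% were downregulated, which is close to the share in this list, and 4.67% upregulated. At an adjusted p under 0.05 alone 9 were lower and 5 higher, where 35.1% and 32.9% of all tested genes were. Ddx60, a helicase that promotes RIG-I signalling, fell from 15.7 ± 0.551 to 2.56 ± 0.363 FPKM (log2 difference -2.23, adjusted p = 8.08e-07). Trim25, the ubiquitin ligase that activates RIG-I, fell from 95.4 ± 0.930 to 39.4 ± 0.377 FPKM (log2 difference -1.25, adjusted p = 1.43e-07).

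Among 15 kinases, scaffolds and transcription factors downstream, 1 was downregulated and 0 upregulated, where 11.3% and 4.67% of all tested genes were. The median log2 difference was 0.04. The downregulated gene was Irf7, the factor that amplifies interferon production, at 102 ± 5.38 FPKM in PBS and 16.1 ± 0.324 FPKM in cisplatin (log2 difference -2.59, adjusted p = 7.06e-08). Irf3, the factor that TBK1 activates directly, had 13.8 ± 0.133 and 14.2 ± 1.10 FPKM (log2 difference 0.04, adjusted p = 0.569), and -0.89 (adjusted p = 3.26e-05) under scaling by the Y-linked genes. Ikbke, the kinase closest to TBK1, was at 52.0 ± 2.46 and 39.8 ± 1.27 FPKM, with a log2 difference of -0.37 (adjusted p = 0.000328), under the fold threshold, which it passed at -1.35 under that scaling.

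Of 18 tested of 20 listed regulators of cGAS and STING, 2 were downregulated and 1 upregulated, close to the shares of all tested genes (11.3% and 4.67%), and the median log2 difference was 0.065. Enpp1, the enzyme that degrades extracellular cGAMP, fell from 6.41 ± 0.782 to 2.17 ± 0.124 FPKM (log2 difference -1.22, adjusted p = 2.18e-05). Trim32, a ubiquitin ligase for STING, had 16.5 ± 0.971 and 7.75 ± 0.287 FPKM (log2 difference -1.0003, adjusted p = 6.40e-06) and lay at the threshold, so that leaving out PBS replicate 2, PBS replicate 3 or cisplatin replicate 3 ended the call, at -0.96, -0.99 and -0.97, as did median-of-ratios scaling (-0.988), quantile normalisation (-0.921), voom (-0.9996) and scaling by total recovered reads (-0.921). Insig1, a sterol sensor that also aids STING activation, rose from 19.5 ± 1.46 to 41.3 ± 1.34 FPKM (log2 difference 1.05, adjusted p = 6.52e-06), but without PBS replicate 3 its log2 difference was 0.997 and the call ended, and scaling by the Y-linked genes gave 0.084.

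Of 7 Zbp1 partners in cell death, 2 were downregulated and 0 upregulated, where 11.3% and 4.67% of all tested genes were. The median log2 difference was -0.14. Gsdmd, the pore-forming protein of pyroptosis, fell from 161 ± 7.70 to 47.0 ± 0.827 FPKM (log2 difference -1.76, adjusted p = 1.66e-07). Casp6, a caspase that helps ZBP1 signal, fell from 5.38 ± 0.066 to 1.72 ± 0.192 FPKM (log2 difference -1.23, adjusted p = 7.76e-06). The necroptosis kinase gene Ripk3 was at 13.3 ± 0.841 and 18.5 ± 1.13 FPKM (log2 difference 0.45, adjusted p = 0.000629), with the opposite sign (-0.49) under scaling by the Y-linked genes. Mlkl, the executioner of necroptosis, was at 30.2 ± 1.57 and 16.1 ± 0.975 FPKM (log2 difference -0.87, adjusted p = 1.61e-05), and -1.83 under that scaling. Neither reached the fold threshold with the FPKM as deposited.

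Of 14 other cytosolic sensors, 1 was downregulated and 0 upregulated, where 11.3% and 4.67% of all tested genes were. The median log2 difference was 0.18. Eif2ak2, the kinase PKR that halts translation on double-stranded RNA, fell from 49.0 ± 2.25 to 19.1 ± 0.675 FPKM (log2 difference -1.31, adjusted p = 8.03e-07). Aim2, the DNA sensor that builds an inflammasome, was at 12.8 ± 1.21 and 16.8 ± 0.846 FPKM (log2 difference 0.37, adjusted p = 0.00367), which turned to -0.57 under scaling by the Y-linked genes. Among 14 tested of 16 nucleases and RNA-modifying enzymes 5 were lower and 5 higher at an adjusted p under 0.05, close to the shares of all tested genes (35.1% and 32.9%). With the fold threshold 0 were called in either direction, where 11.3% of all tested genes were downregulated and 4.67% upregulated. That 0 depended on the setting, since Dnase2a, the lysosomal DNase, was called higher with a pseudocount of 0.1 (1.01), quantile normalisation (1.01) and voom (1.10), and voom also called Rnaseh2b, Dnase1l3 and Pld4 higher. These and the other enzymes named beside Adar were chosen after their values were seen. Adar, the editor that marks double-stranded RNA as self, was one of the 5 lower, at 25.1 ± 0.557 and 21.1 ± 0.883 FPKM (log2 difference -0.24, adjusted p = 0.00217), and under scaling by the Y-linked genes it was called at -1.20, together with Rnaseh2a, Pnpt1, Pld3 and Xrn1.

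Only 4 of 24 interferon ligand and receptor genes passed the filter on low values, all of them receptor genes. Among the 4, 0 were called, where 11.3% of all tested genes were downregulated and 4.67% upregulated. At an adjusted p under 0.05, 1 was lower and 1 higher, where 35.1% and 32.9% of all tested genes were. Ifnar1 and Ifnar2, the chains of the type I interferon receptor, had log2 differences of -0.02 each (adjusted p = 0.638 and 0.707). Ifnb1, the first interferon made downstream of TBK1, had 9, 4 and 5 reads in the PBS libraries and 0, 3 and 2 in the cisplatin libraries, and lay below the filter. A further 10 ligand genes were listed at 0 in every library.

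**Figure D4:**
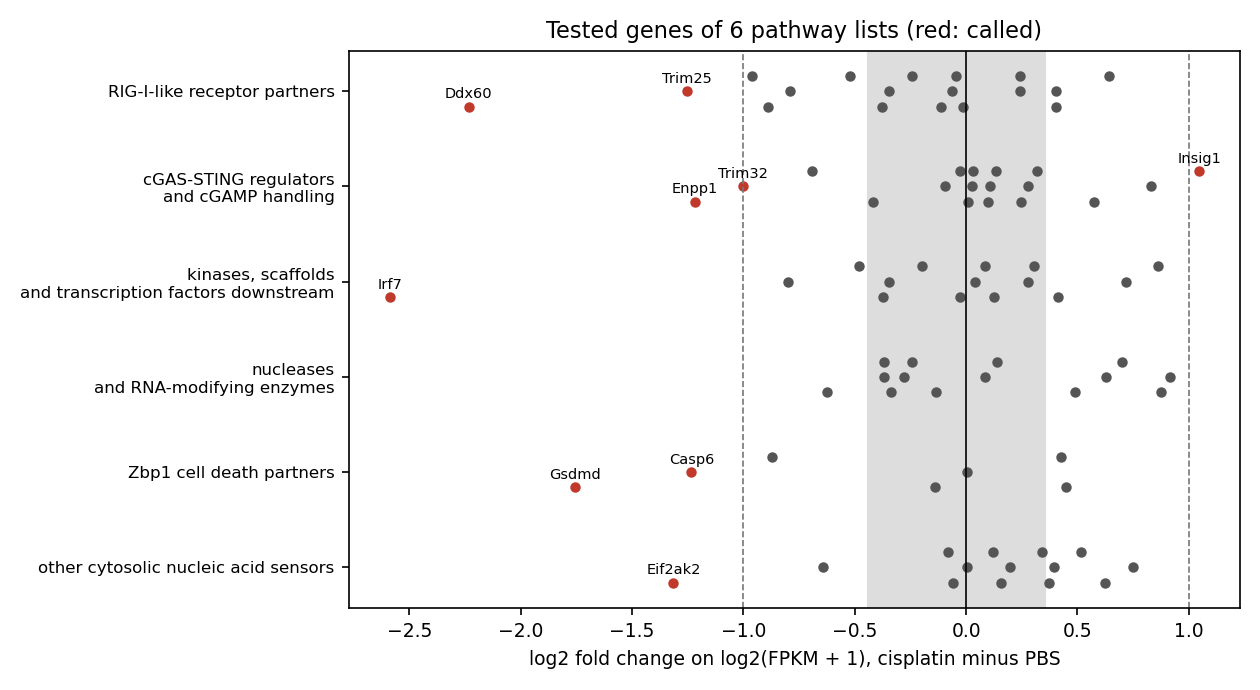
Log2 fold change (the log2 difference) of every tested gene in 6 pathway lists (points, red and named where called), cisplatin minus PBS on log2(FPKM + 1), with the band from the 25th to the 75th percentile of all tested genes and dashed lines at -1 and 1. Irf7, Ddx60 and Gsdmd lay farthest to the left, at -2.59, -2.23 and -1.76, and Insig1 was the one gene past the line on the right.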

How the data were processed

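RNA of 6 libraries was sequenced after poly-T selection and random priming. The deposited table gives FPKM per gene, computed by the authors. Their methods name LifeScope for alignment and counting, whereas the submitters' processing notes name fastp, HISAT2 2.0.5, featureCounts 1.5.0-p3 and mm10. The strand setting is not given in the sources used here. Of 54532 identifiers, 54409 were found in GENCODE M21, 98.3% of them with the same coordinates.

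FPKM is not a count, so values were tested as log2(FPKM + 1) with limma 3.58.1 in R 4.3.3 (lmFit, eBayes with a trend, group as the only term), with Benjamini-Hochberg adjustment over the 13441 genes with at least 1 FPKM in at least 3 libraries. This scale understates changes of low genes. For a call the adjusted p had to be under 0.05 and the fold change 1 or more in log2 size, the study's threshold. FPKM times gene length gave whole reads (tolerance 0.1) for 100% of values under 200 reads. The library size by which the authors divided came to 97.4% to 98.7% of these reads in PBS and 103.7% to 104.1% in cisplatin libraries.

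The sensor genes and lists were chosen with earlier results of these data known. Named genes are the 10 members, 10 pathway genes given whatever their values, up to 3 called genes with the largest change per pathway list, the extremes of the ID8 list and the genes most like a member, with other names marked as chosen after their values were seen, except genes named because they overlap a member (Dhx58os, Gm8093 and Atrip). Some single-gene results are not reported here. Deviations of same-numbered replicates from their group means correlated at -0.104, -0.0857 and -0.0235, which shows no strong effect shared by same-numbered libraries. These values cannot tell whether such libraries came from the same mouse or culture. Alternatives were 17 planned and 1 added settings of pseudocount, filter, scaling, test and left-out library. The fit was tested on simulated reads of the 13441 genes, with 50 genes changed at each of 4 folds. Changed genes were drawn above a floor of reads, the spread between libraries was fixed, and nearly all genes stayed unchanged. In the data 68.0% of tested genes had an adjusted p under 0.05, so the rates that follow hold for the simulation. An adjusted p under 0.05 was reached by 98% and 100% of genes at folds of 0.25 and 4 and by 84% and 96% at folds of 0.5 and 2. Only 10% and 12% of the genes at folds of 0.5 and 2 were called. These folds lie at the fold threshold itself and the scale also understates changes, and the part of each was not tested.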

Additional observations from a re-analysis of the deposited data

How the results depend on the processing

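Ddx58, Ifih1, Dhx58 and Zbp1 kept their direction and call in each of 17 alternatives. With the Y-linked genes as the scale the median of all genes was -0.84, with -1.52 for Mavs and -1.56 for Samhd1, now called, -0.99 for Tmem173, and the opposite sign for Mb21d1 (-0.30) and Tbk1 (-0.92). It gave 5242 genes lower and 90 higher, and 35 and 0 in the pathway lists. The sign of Tmem173 turned under quantile normalisation (0.012), limma voom on recovered reads (0.058), scaling by total recovered reads (0.053, chosen after the data were seen) and without PBS replicate 2 (0.021). Quantile normalisation, voom and scaling by total reads moved the median of all genes to 0.10, 0.085 and 0.073. The adjusted p alone gave 1 sensor gene higher, 4721 genes lower and 4424 higher, and 31 and 33 in the pathway lists, against 1514 and 628 genes and 8 and 1 in the lists with the fold threshold. A pseudocount of 0.1 gave 973 genes higher and voom 1228. The pathway list genes called higher were 4 with a pseudocount of 0.1, 2 with quantile normalisation and 8 with voom. The cause of these changes was not tested.

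Leaving out each library in turn gave log2 fold changes of -1.95 to -1.89 for Ddx58, -2.34 to -2.24 for Ifih1, -1.62 to -1.59 for Dhx58, -1.91 to -1.87 for Zbp1, -0.66 to -0.55 for Mavs, -0.60 to -0.54 for Samhd1, 0.48 to 0.54 for Mb21d1, -0.074 to 0.021 for Tmem173 and 0.027 to 0.076 for Tbk1. The called genes numbered 1513 to 1531 lower and 622 to 671 higher over all genes, 4 lower and 0 higher among the sensor genes, and 7 to 9 lower and 0 to 1 higher in the pathway lists, the 0 arising without PBS replicate 3. With the replicate block 1515 genes were lower and 625 higher, Ddx58 was at -1.93, and no sensor gene changed its call. Counting error was large for the interferon ligand genes, such as Ifnb1 with at most 9 reads in a library, and these lay below the filter on level.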

Other observations

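The genes whose levels ran most like each sensor gene over the 6 libraries were found by the root mean square distance of centred log2(FPKM + 1) values, a description without a test in which the libraries shared a single contrast. For Ddx58 they included Gm12185 (distance 0.017) and Cd2ap (0.033), and for Ifih1 they were Plce1 (0.027), Cxadr (0.030) and Cyp2j6 (0.033). Dhx58 lay closest to Aplp2 (0.027), Rab34 (0.028) and Gulp1 (0.030), and Zbp1 to Pls3 (0.014), Prnp (0.023) and Pcolce (0.027). Cxadr, the junction receptor for coxsackievirus and adenovirus, was at 38.6 FPKM in PBS and 7.13 FPKM in cisplatin, and Pls3, an actin-bundling protein, was at 40.3 and 10.1 FPKM. Since this scale understates changes of low genes, a small distance does not mean an equal fold in FPKM. Gm12185 went from 4.39 to 0.440 FPKM, Plce1 from 6.15 to 0.460 and Gulp1 from 3.01 to 0.309, larger folds than those of their sensor genes. The nearest genes were Phf21a (0.028), Tm7sf3 (0.029) and Zfp974 (0.035) for Mavs, and Castor2 (0.022), Mboat1 (0.023) and Atxn2 (0.026) for Samhd1. Mb21d1 lay closest to Rhobtb2 (0.012), H2afy (0.018) and Tbc1d2 (0.020). Etaa1 (0.0063), Yae1d1 (0.021) and Btbd7 (0.023) were nearest to Tmem173, and Sub1 (0.015), Mrgbp (0.018) and Lsm14a (0.018) to Tbk1.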
